A study of Mus musculus with 27 samples.

Results

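Ly6d, Ltf, Pdpn, Ak4, Rasgrf1, Slc8a1 and Tnk1 were read in every liver organoid library of mice given mineral oil and were far lower in organoids of mice with carbon tetrachloride (CCl4) liver fibrosis. Pdpn, Ak4, Rasgrf1, Slc8a1 and Tnk1 were wholly or nearly without reads there, while Ltf and above all Ly6d remained above the limit of detection. These 7 of the 27178 genes in each organoid table were chosen by symbol for that fall, so their difference between those organoids is described here and not tested. The liver table held 25859 genes, the 7 among them. All libraries were from mouse, with 3 in each of 9 groups and 27 in all. The liver table held healthy liver, liver with CCl4-induced fibrosis, and fibrotic liver from CCl4-treated mice to which an extract of the brown alga Sargassum japonica was given as well. A second table held organoids of mice that had received mineral oil (the vehicle for CCl4), those of CCl4 mice, and those of CCl4 mice after 24 h with the extract. The third table covered organoids of healthy mice, either untreated, exposed to transforming growth factor β1 (TGF-β1) for 24 h, or exposed to it for 24 h before another 24 h with the extract. All organoids grew in Matrigel domes in expansion medium and then in differentiation medium for 4 to 5 days. The sources used here state no doses and no strain, age or sex of the mice, and do not say if the TGF-β1 group without extract was collected after 24 h or alongside the extract group.

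Liver organoids of this kind grow from bile duct cells as an epithelium without blood vessels or connective tissue. CCl4 is a hepatotoxin that kills hepatocytes, and repeated doses lead to scarring by activated stellate cells and to growth of bile ducts. TGF-β1 is the main cytokine that drives scar formation, and it also acts on epithelial cells.

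The 7 genes have different roles. Ly6d encodes a small lipid-anchored surface protein of the Ly6 family, used as a marker of early B cells and of stratified epithelium. Pdpn encodes podoplanin, a mucin-like membrane protein of lymphatic endothelium, mesothelium and fibroblasts that binds the platelet receptor CLEC-2. Ltf encodes lactotransferrin, an iron-binding antimicrobial protein secreted by glandular epithelium and stored in neutrophil granules. Slc8a1 encodes the sodium-calcium exchanger NCX1, which removes calcium from the cell. Ak4 encodes a mitochondrial adenylate kinase and is a known target of hypoxia-inducible factor. Rasgrf1 encodes a calcium-regulated exchange factor that loads Ras with GTP, and Tnk1 encodes a non-receptor tyrosine kinase.

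The genes lie at 7 separate places in the mouse genome (GENCODE M21, GRCm38; whole genes, with the number of merged exons). Ly6d is on chromosome 15 from 74762056 to 74763620, minus strand, with 3 exons. Pdpn is on chromosome 4 from 143267431 to 143299564, minus strand, with 6 exons. Ak4 is on the same chromosome from 101419277 to 101466995, plus strand, with 7 exons. Chromosome 9 carries Rasgrf1 from 89909908 to 90026977 and Ltf from 111019271 to 111042767, both on the plus strand, with 28 and 18 exons. Slc8a1 spans 81373105 to 81738377 on the minus strand of chromosome 17, with 13 exons, and overlaps exons of Gm11096 and of the antisense gene AC122399.1 on the other strand. Tnk1 is on chromosome 11 from 69851005 to 69858730, minus strand, with 14 exons, and overlaps exons of Plscr3 on the other strand. The library kit was stranded, but the sources used here do not say if the counting used strand. Reads in the exon stretches that these genes share therefore cannot be told apart. Plscr3, a phospholipid scramblase, had 54.8 ± 11.4 (SD, n = 3) counts per 1000000 reads (CPM) in mineral oil organoids and 45.0 ± 6.25 (n = 3) in organoids of CCl4 mice. Tnk1 had 9 reads in all in the same organoids of CCl4 mice.

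RefSeq promoter sequences (GRCm38.p6) matched 6 of the 7 genes, all but Ly6d. The 250 bases upstream of the start are shown for the pair whose levels ran most alike across the organoid libraries, Pdpn and Slc8a1, and for Ltf and Tnk1, which kept their expression in organoids of healthy mice. Pdpn lies at chr4:143299565-143299814, minus strand, Slc8a1 at chr17:81738388-81738637, minus strand, Ltf at chr9:111019042-111019291, plus strand, and Tnk1 at chr11:69858731-69858980, minus strand. Capitals mark the hypoxia core ACGTG on either strand.
Pdpn: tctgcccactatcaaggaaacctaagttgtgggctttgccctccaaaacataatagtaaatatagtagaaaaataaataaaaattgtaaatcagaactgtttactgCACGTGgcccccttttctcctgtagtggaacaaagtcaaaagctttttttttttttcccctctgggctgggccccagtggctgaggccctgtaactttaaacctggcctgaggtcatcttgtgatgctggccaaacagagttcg
Slc8a1: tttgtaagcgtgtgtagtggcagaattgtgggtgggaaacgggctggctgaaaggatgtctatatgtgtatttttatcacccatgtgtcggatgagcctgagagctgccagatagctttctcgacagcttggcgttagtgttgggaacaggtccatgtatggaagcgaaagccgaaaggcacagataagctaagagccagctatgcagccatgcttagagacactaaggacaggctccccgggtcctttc
Ltf: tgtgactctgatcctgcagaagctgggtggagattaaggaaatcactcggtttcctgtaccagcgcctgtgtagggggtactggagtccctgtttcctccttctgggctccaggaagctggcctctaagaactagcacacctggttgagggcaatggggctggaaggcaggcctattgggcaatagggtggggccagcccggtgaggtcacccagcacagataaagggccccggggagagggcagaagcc
Tnk1: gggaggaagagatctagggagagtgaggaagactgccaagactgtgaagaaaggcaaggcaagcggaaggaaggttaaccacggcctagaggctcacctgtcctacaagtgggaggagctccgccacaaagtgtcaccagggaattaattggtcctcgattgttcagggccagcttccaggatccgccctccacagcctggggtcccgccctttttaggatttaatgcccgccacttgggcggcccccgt
Only the first promoter listed for each gene was searched, and Ak4 has 4 listed, so its others were not covered. Of the 6 promoters searched, Pdpn alone held ACGTG, where matches on both strands overlap, and 16.6% of 27025 mouse promoters of this length hold it. None of the 6 held an interferon response core (GAAA, any 2 bases, GAAA, in 3.04% of promoters), GGAATG (a TEAD core, 12.6%), TGANTCA (AP-1, 6.87%) or an NF-κB core (GGG, any 2 bases, TTTCC, 1.4%), searched on both strands. The share of G and C was 43.2% for Pdpn, 50.4% for Slc8a1, 57.6% for Tnk1, 59.2% for Ltf, 60.4% for Ak4 and 69.2% for Rasgrf1, against a median of 52% over all promoters.

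The libraries held 44.51 to 64.84 M reads assigned to genes, so that 3 reads, the limit a count of 0 allows, correspond to 0.0496 to 0.0721 CPM. CPM values are whole reads recovered from the deposited log2 values and divided by the authors' scaled library size, and their intervals cover counting error only. Each table was normalized on its own, so levels from different tables are set side by side without a test. Mineral oil organoid replicate 1 stood apart on the first principal component of its table, at 38.6 against 120 and 132 for replicates 2 and 3. In the TGF-β1 table, untreated replicate 3 (79.6) and TGF-β1 plus extract replicate 3 (95.3) stood apart from the other 7 libraries (-27.2 to -23.2). The labels do not say whether replicates came from separate mice or cultures, so p-values measure only the spread between libraries, which may be technical.

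In mineral oil organoids every one of the 7 genes was read well above the limit of detection, at levels that differed widely per length. Per kilobase of exon, Ly6d had 1792 CPM, Ltf 70.2, Pdpn 13.1, Tnk1 11.1, Ak4 10.9, Rasgrf1 6.78 and Slc8a1 1.09. In organoids of CCl4 mice all 7 lay below every mineral oil library, as 21.9% of the 14836 genes tested in that table did. Of these genes, 40.2% differed between the 2 groups at an adjusted p under 0.05 (limma with Benjamini-Hochberg adjustment), 20.4% higher and 19.8% lower in organoids of CCl4 mice. Since the genes were chosen on this contrast, nothing is read from those shares.

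Ly6d was the most abundant of the 7, with 1234, 1450 and 1317 CPM in the mineral oil organoids. It had 2.36, 25.0 and 18.7 CPM in the organoids of CCl4 mice. The CCl4 libraries thus differed by more than the mineral oil libraries did, with replicate 1 lowest, and the ratio of the group means was 86.8-fold (exact 95% counting interval of the summed reads 82.3 to 89.3). Pdpn, the other surface protein, had 15.3, 26.0 and 30.1 CPM in mineral oil organoids and no read in any of the 3 CCl4 organoid libraries. Against the limit of 3 reads per library, Pdpn was at least 401-fold lower. Mineral oil replicate 1, which stood apart, held the lowest Pdpn level of its group.

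Ltf had 292, 214 and 221 CPM in mineral oil organoids. In organoids of CCl4 mice it had 0.166, 1.98 and 1.32 CPM, again lowest in replicate 1, for a ratio of 210-fold (181 to 245). Slc8a1, the calcium exchanger, had 13.7, 24.4 and 23.4 CPM in mineral oil organoids. Only 4 reads of Slc8a1 were present in the 3 CCl4 organoid libraries together (0, 2 and 2), a ratio of 796-fold with a wide interval of 302 to 2843.

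Ak4 had 42.5, 57.9 and 51.1 CPM in mineral oil organoids and 2, 0 and 5 reads in organoids of CCl4 mice. Its ratio was 1162-fold (531 to 2725). The Ras exchange factor Rasgrf1 had 82.6, 72.0 and 70.3 CPM in mineral oil organoids, and 0, 6 and 11 reads in organoids of CCl4 mice. The ratio for Rasgrf1 was 702-fold (421 to 1158). Tnk1 had 71.9, 20.4 and 18.1 CPM in mineral oil organoids and 5, 2 and 2 reads in organoids of CCl4 mice, a ratio of 610-fold (336 to 1398). Here the library that stood apart, mineral oil replicate 1, held far more Tnk1 than the other mineral oil libraries.

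**Figure D1:**
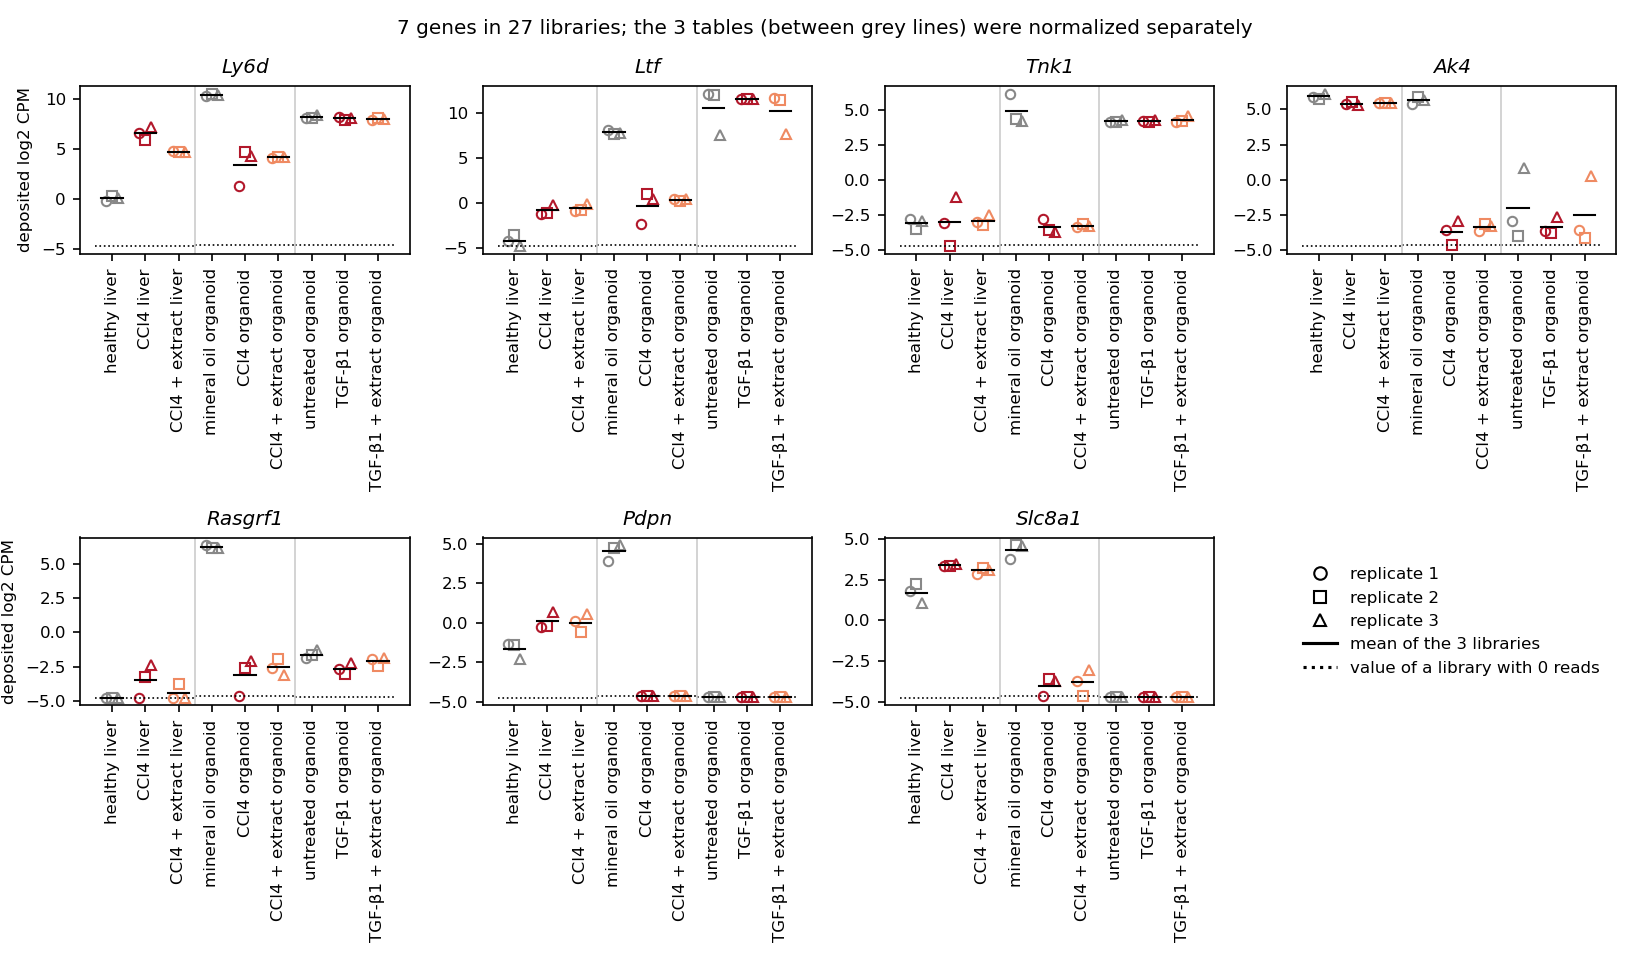
Deposited log2 CPM (y axis, one panel per gene) of the 7 genes in each of the 27 libraries, grouped on the x axis by the 9 groups; points are libraries, bars the mean of 3, and the dotted line the value that 0 reads give. In organoids of CCl4 mice all 7 genes lie near the dotted line or far below mineral oil organoids, while Ly6d, Ltf and Tnk1 stay well above it in untreated organoids of healthy mice.

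On the log2 scale with the deposited prior count of 2 reads, which understates the change of genes near 0, Ak4 (-9.40 ± 0.42 SE), Rasgrf1 (-9.34 ± 0.62), Pdpn (-9.18 ± 0.31), Slc8a1 (-8.32 ± 0.49), Tnk1 (-8.29 ± 0.53) and Ltf (-8.18 ± 0.73) were the 6 lowest fold changes of all 14836 genes. These are also the 6 genes at -8 or below. Ly6d ranked 12th at -7.00 ± 0.75. Between Ltf and Ly6d lay Isg15 (-7.82), Nid1 (-7.61), Ifi44 (-7.58), Lrrc31 (-7.39) and Oas2 (-7.21), and just after Ly6d lay Rsad2 (-6.47) and Lefty1 (-6.37). Isg15, Ifi44, Oas2 and Rsad2 are interferon-induced genes, and these 7 neighbours in rank were named after their values were seen. Without mineral oil replicate 1 the fold changes of the 7 genes ran from -9.52 (Ak4) to -7.05 (Ly6d), and Tnk1 moved from -8.29 to -7.65. Without replicate 1 of the CCl4 organoids, Ly6d was at -5.94, Ltf at -7.18 and Rasgrf1 at -8.57. Counts of calls over all genes moved more, from 40.2% to 60.7% of genes without mineral oil replicate 1.

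Of the nearest protein-coding genes on either side of the 7, 9 could be tested, of which 4 were lower and 2 higher. Over all genes tested, 19.8% were lower and 20.4% higher. That the neighbours moved less than the 7 follows from the choice of the 7 by their fall. Lynx1, 9010 bases from Ly6d and a member of the same family, was lower by 1.71 on the log2 scale (adjusted p = 3.84e-05, limma). Ccrl2, a chemokine-binding receptor 11719 bases from Ltf, had a log2 fold change of -3.15 (adjusted p = 0.00121). Jak1, beside Ak4, had -0.94 (8.62e-05), Prdm2, beside Pdpn, -1.27 (2.29e-05), and Ctsh, beside Rasgrf1, -0.14 (0.734). Pkdcc, the gene after Slc8a1, was higher by 2.07 (0.001), and Tmem256, beside Tnk1, by 0.52 (0.0147).

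Cell type markers moved in the same organoids, where 20.4% of all genes were higher and 19.8% lower. The summed level of 12 cholangiocyte markers was 10306 to 11523 CPM in mineral oil organoids and 7964 to 8521 in organoids of CCl4 mice, with 7 of 12 lower at an adjusted p under 0.05. Markers of mesothelium, a Pdpn-expressing lining, summed to 901 to 1664 and 388 to 635 CPM when Krt19 was left out, nearly all of it from Msln. Macrophage markers summed to 28.0 to 116 CPM in mineral oil organoids and 6.74 to 16.7 in organoids of CCl4 mice, mostly from Csf1r, and 7 of the 10 had no read in mineral oil organoids. Hepatocyte markers were higher, at 1283 to 1537 and 2591 to 3391 CPM (6 higher and 1 lower of 9 tested). Stratified epithelial markers, of a tissue known for Ly6d, overlapped at 743 to 1131 and 903 to 1342 CPM, mostly from Sprr1a (0 higher and 2 lower of 7). Neutrophil markers summed to 1.82 to 3.95 and 0.601 to 2.12 CPM (0 higher and 1 lower of 2 tested). S100a8 was the highest of them, at means of 1.49 and 1.21 CPM, while Csf3r, Mpo and Elane had no read in any of the 18 organoid libraries. Lymphatic endothelial markers, where Pdpn is usually found, summed to 7.17 to 33.2 and 7.52 to 17.2 CPM, with Ccl21a and Mmrn1 at 0. Of 5 tested, 2 were higher and 1 lower. Stellate cell and fibroblast markers summed to 1.40 to 2.63 and 1.99 to 2.99 CPM (3 higher and 1 lower of 4 tested). The part of these other cell types in the falls was not tested, and in bulk RNA fewer cells of a type and less RNA per cell cannot be told apart.

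Organoids of healthy mice separated the 7 genes into those present and those absent without any CCl4. Ly6d had 261, 263 and 322 CPM in untreated organoids, 4.73-fold below the mineral oil mean, with no overlap. Ltf was 12.8-fold above the mineral oil mean, with 4708 and 4385 CPM in replicates 1 and 2 and 193 CPM in replicate 3, the library that stood apart. Tnk1 had 17.7, 17.2 and 19.9 CPM, close to mineral oil replicates 2 and 3. Pdpn and Slc8a1 had no read in any untreated organoid, so they were at least 369-fold and at least 317-fold below mineral oil organoids. Ak4 had 4 reads, 1 read and 92 reads in untreated replicates 1, 2 and 3, and Rasgrf1 had 10, 12 and 20 reads. Pdpn, Slc8a1, Rasgrf1 and, outside untreated replicate 3, Ak4 were thus at no more than 20 reads per untreated library as well, and their loss holds relative to mineral oil organoids. Ak4 averaged 0.603 CPM in untreated organoids with that library and 0.0434 CPM in organoids of CCl4 mice. The separate normalization and the separate experiment behind each table stand beside these comparisons, and no test was made across them.

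Over the 18 organoid libraries, Pdpn, Slc8a1, Ak4 and Rasgrf1 ran together, with Pearson correlations of log2 CPM of 0.899 to 0.99 in 6 pairs. Ly6d, Ltf and Tnk1 ran together at 0.815 to 0.911 in 3 pairs. The 12 pairs between the sets had 0.00614 to 0.694. These are descriptions: the libraries come from 2 tables, share groups, and include the contrast on which the genes were chosen.

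**Figure D2:**
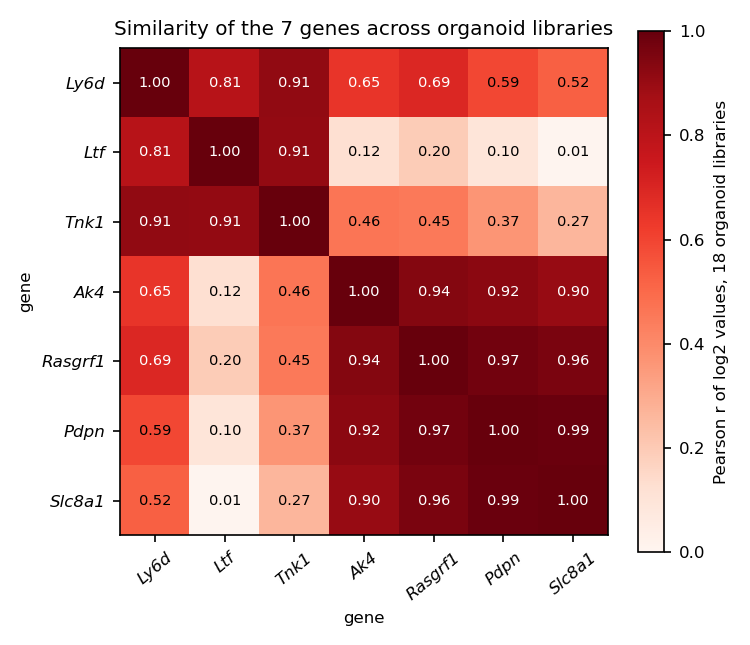
Pearson correlation of deposited log2 CPM between each pair of the 7 genes (both axes) over the 18 organoid libraries, as a colour scale. Pdpn, Slc8a1, Ak4 and Rasgrf1 form one block (0.899 to 0.99) and Ly6d, Ltf and Tnk1 another (0.815 to 0.911).

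The genes whose log2 levels ran most like each of the 7 were taken across the same 18 libraries. Ly6d was matched best by Shisa5 (r = 0.986), which had mean levels of 416 CPM in mineral oil organoids, 217 in organoids of CCl4 mice and 346 in untreated organoids. Ltf was matched by Tgm2, a transglutaminase (r = 0.99; 337, 155 and 521 CPM in the same order), and Tnk1 by Crip2 (r = 0.99; 164, 3.74 and 146 CPM). Pdpn and Slc8a1 were each other's closest gene (r = 0.99). In all organoids but those of mineral oil mice, Pdpn had 0 reads and Slc8a1 0 to 4 per library. Their correlation thus rests on the contrast that chose both genes. The next for Slc8a1 was Lefty1, a secreted Nodal inhibitor (r = 0.983; 19.4, 0.190 and 0.206 CPM). Rasgrf1 was matched by Sh3bgrl3 (r = 0.992; 743, 136 and 187 CPM) and Ak4 by Galnt10, a glycosyltransferase (r = 0.972; 155, 78.4 and 79.8 CPM).

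With the extract for 24 h, no difference from organoids of CCl4 mice was detected for Ly6d and Ltf, in a comparison that uses the same CCl4 libraries on which the genes were chosen. The other 5 genes had 0 to 12 reads per library in both groups and passed the filter on low values only through the mineral oil organoids, so this comparison could hardly show a change in them. Ly6d had 17.0, 17.95 and 17.4 CPM with the extract, inside the range of the CCl4 libraries without it. Ltf had 1.39, 1.12 and 1.39 CPM, likewise inside that range, and Pdpn again had no read in any library. Ak4 had 2, 4 and 3 reads, Rasgrf1 7, 12 and 4, Slc8a1 2, 0 and 4, and Tnk1 3, 4 and 3.

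The log2 fold changes with the extract were 0.75 ± 0.75 (SE) for Ly6d, 0.69 ± 0.73 for Ltf, 0.58 ± 0.62 for Rasgrf1, 0.35 ± 0.42 for Ak4, 0.19 ± 0.49 for Slc8a1, 0.09 ± 0.53 for Tnk1 and 0 for Pdpn, each with an adjusted p of 0.9998 or more (limma). No gene in the whole table was called in this comparison (0%); 271 had an unadjusted p under 0.05, none of them among the 7, and limma voom also called 0 genes, with 254 below 0.05 unadjusted. With standard errors of 0.42 to 0.75 for the 6 genes that had reads, these comparisons are imprecise, and a missed threshold does not show that levels were equal. Set against mineral oil organoids, the organoids with the extract had log2 fold changes of -9.18 for Pdpn, -9.05 for Ak4, -8.76 for Rasgrf1, -8.20 for Tnk1, -8.13 for Slc8a1, -7.49 for Ltf and -6.25 for Ly6d. That comparison shares the mineral oil libraries with the one that chose the genes.

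In CCl4 liver the picture differed from that in organoids: Ly6d, Ltf, Pdpn and Slc8a1 were higher than in healthy liver, and Ak4 was lower. These 5 of the 7 genes passed the filter on low values in the liver table, Ltf only through the livers of CCl4 mice, where it is high. Pdpn, with 20, 14 and 9 reads in the healthy livers, also needed the livers of CCl4 mice to pass. Over all 15037 genes 54.2% were called, 28.7% higher and 25.5% lower in CCl4 liver, so that a call in either direction was common. The liver directions were known when the 7 genes were listed.

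Ly6d had 0.807, 1.20 and 1.03 CPM in healthy liver. It had 96.1, 58.5 and 140.4 CPM in CCl4 liver, a mean 97.0-fold higher and a log2 fold change of 6.48 ± 0.25 (SE; adjusted p = 7.92e-09, limma). Slc8a1 rose from 3.38, 4.62 and 2.08 CPM to 10.2, 10.2 and 10.9 CPM (log2 fold change 1.70 ± 0.23, adjusted p = 8.41e-05). For both genes every CCl4 liver lay above every healthy liver, as for 30.7% of all genes.

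Pdpn had 0.351, 0.337 and 0.166 CPM in healthy liver and 0.794, 0.841 and 1.59 CPM in CCl4 liver (1.78 ± 0.40, adjusted p = 0.0026, limma). Ltf rested on few reads: 3 in the healthy livers together and 101 in the CCl4 livers, at 0.397, 0.456 and 0.879 CPM. The ratio of summed Ltf reads, healthy over CCl4 liver, had an exact 95% counting interval of 0.00692 to 0.103, and the log2 fold change was 3.38 ± 0.45 (adjusted p = 7.27e-05). Ak4 moved the other way, from 58.8, 55.0 and 70.0 CPM to 40.9, 46.0 and 40.3 CPM (-0.53 ± 0.10, adjusted p = 0.00117), with no overlap, as for 28.7% of all genes.

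With library size alone as the scaling, the median gene of the liver moved up by 0.38 on the log2 scale, 84% of the called genes were higher in CCl4 liver in place of 53%, and Ak4 no longer passed the test (-0.14, adjusted p = 0.195); the other 4 genes stayed past it. Rasgrf1 (0, 4 and 9 reads in CCl4 liver and none in healthy liver) and Tnk1 (5, 0 and 23 reads against 6, 2 and 5) were not tested in liver. Fitted without a filter, they had log2 fold changes of 1.30 (adjusted p = 0.069) and 0.10 (0.943).

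**Figure D3:**
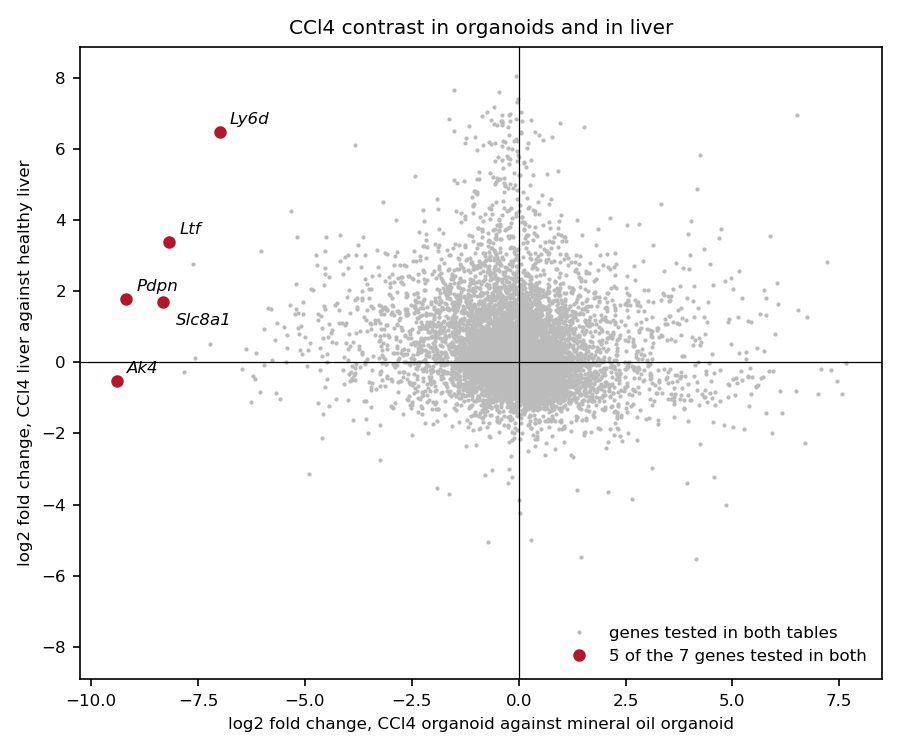
Log2 fold change of organoids of CCl4 mice against mineral oil organoids (x axis) and of CCl4 liver against healthy liver (y axis) for the 13116 genes tested in both tables (grey points), with the 5 of the 7 genes tested in both in red. Ly6d, Ltf, Pdpn and Slc8a1 lie in the upper left and Ak4 in the lower left, and 26.5% of all points lie in the upper left.

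Ly6d, Ltf, Pdpn and Slc8a1 thus lay lower in organoids of CCl4 mice and higher in CCl4 liver, a combination seen for 3481 (26.5%) of the 13116 genes tested in both tables. The difference between the 2 contrasts was not tested, as the tables were normalized separately. The levels themselves differed in scale: in CCl4 liver Pdpn had a mean of 1.07 CPM, against 23.8 CPM in mineral oil organoids, while Ak4 had 42.4 CPM in CCl4 liver and 0.0434 CPM in organoids of CCl4 mice.

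Markers of several cell types also differed in the same livers, where 28.7% of all genes were higher and 25.5% lower. The cholangiocyte markers summed to 49.5 to 68.1 CPM in healthy liver and 220 to 475 in CCl4 liver, with 10 of 11 tested higher. The neutrophil markers, a list that does not hold Ltf, went from 4.42 to 7.67 CPM to 20.2 to 29.8 CPM, with 10 of 11 higher. Stellate cell markers summed to 242 to 298 CPM in healthy liver and 1162 to 1581 in CCl4 liver (11 of 12 higher), mesothelial markers without Krt19 to 1.79 to 2.93 and 8.76 to 11.8 CPM (7 of 7 higher), and lymphatic endothelial markers to 145 to 215 and 233 to 308 CPM (4 higher and 1 lower of 7). Of the cell types that Ly6d marks, B cell and plasmacytoid dendritic cell markers summed to 6.66 to 7.3 and 17.1 to 21.6 CPM (7 of 8 higher), and stratified epithelial markers to 0.0369 to 0.192 and 4.89 to 6.51 CPM, mostly from Sprr1a (2 of 2 tested higher, 5 of 10 without a read in CCl4 liver). Hepatocyte markers went the other way, with 7 of 12 lower and 0 higher and sums of 142751 to 163445 and 124411 to 133376 CPM. The part of these cells in the rise of the 4 genes was not tested.

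In CCl4 mice given the extract, Ly6d was lower than in CCl4 liver without it, and the other 4 tested genes did not pass the test. Ly6d had 26.4, 25.4 and 25.0 CPM with the extract, below every CCl4 liver and far above every healthy liver. Its log2 fold change was -1.85 ± 0.25 (SE; adjusted p = 0.000514, limma), the single call among the 5 tested genes where 19.1% of all genes were called and 9.76% were lower. Beside this, 4 of 11 cholangiocyte markers were lower and 0 higher (sum 146 to 176 CPM), as were 3 of 12 stellate cell markers (735 to 901 CPM) and 1 of 2 stratified epithelial markers (1.09 to 1.82 CPM), while 4 of 12 hepatocyte markers were higher and 0 lower. Of 8 B cell and plasmacytoid dendritic cell markers, cell types that Ly6d also marks, 0 were higher and 0 lower. They summed to 18 to 22.8 CPM with the extract and 17.1 to 21.6 CPM without it. Of 8 mesothelial markers, Krt19 included, 0 were higher and 0 lower, and of 11 neutrophil markers 1 was higher and 0 lower. Lymphatic endothelial (of 7) and macrophage markers (of 10) each had 1 lower and 0 higher. The part of any of these cells in the fall of Ly6d was not tested.

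Slc8a1 had 7.25, 9.33 and 8.57 CPM with the extract, below all 3 CCl4 livers (as 21.6% of all genes were), but at -0.32 ± 0.23 it did not pass the test (adjusted p = 0.373, limma). Ltf (0.26 ± 0.45, adjusted p = 0.740), Pdpn (-0.08 ± 0.40, 0.920) and Ak4 (0.04 ± 0.10, 0.811) overlapped between the groups. Among the called genes 48.9% were higher with the extract, and with library size alone 15.1%. Against healthy liver, where 34.8% of genes were called (60.8% of them higher, or 82% with library size alone), the livers with the extract had log2 fold changes of 4.63 ± 0.25 for Ly6d (adjusted p = 2.54e-07), 3.64 ± 0.45 for Ltf (9.43e-05), 1.70 ± 0.40 for Pdpn (0.0064), 1.37 ± 0.23 for Slc8a1 (0.000844) and -0.48 ± 0.10 for Ak4 (0.00401). That comparison and the one of CCl4 liver use the same 3 healthy livers. Ltf and Pdpn passed the filter only with livers of CCl4 mice, so a higher level than in healthy liver was favoured for them in both.

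TGF-β1 given to organoids of healthy mice was followed by no called change in the 4 genes that could be tested there, Ly6d, Ltf, Rasgrf1 and Tnk1. Only 3 of 14125 genes were called (0.0212%), with 1747 below an unadjusted p of 0.05 and 1 gene called by limma voom. Among the 4 genes, 1 was below an unadjusted p of 0.05, by limma and by limma voom alike. Ly6d had 279, 239 and 275 CPM with TGF-β1 and overlapped the untreated organoids (log2 fold change -0.09 ± 0.11, adjusted p = 0.765, limma). Tnk1 had 18.5, 17.8 and 19.0 CPM and overlapped them as well (0.02 ± 0.12, 0.966). Rasgrf1 had 6, 5 and 9 reads, below every untreated library, as 13.3% of all genes were, and did not pass the test (-1.02 ± 0.36, adjusted p = 0.325, limma). It passed the filter on low values only with the untreated libraries, where it was highest, so a lower level with TGF-β1 was favoured. Pdpn and Slc8a1 had no read in any of the 9 libraries.

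Ltf had 3196, 3013 and 3088 CPM with TGF-β1, between the pair of high untreated libraries and untreated replicate 3 (log2 fold change 0.97 ± 1.41, adjusted p = 0.811, limma). Without untreated replicate 3 and TGF-β1 plus extract replicate 3, the 2 libraries that stood apart, Ltf turned direction and passed the test, at -0.55 (adjusted p = 0.000221), and 3317 genes (24% of those tested) were called. Without untreated replicate 3 alone it was also at -0.55, with an adjusted p of 0.909. Untreated replicate 3 held 193 CPM of Ltf, against 4385 and 4708 CPM in the others of its group, and 92 reads of Ak4, against 4 and 1. TGF-β1 plus extract replicate 3 likewise held 210 CPM of Ltf against 3390 and 2957 CPM, and 68 reads of Ak4 against 2 and 1. S100a8, a neutrophil and epithelial alarmin, was low in the same libraries, at 46.8, 37.5 and 7.94 CPM in untreated replicates 1, 2 and 3 and 42.8, 41.7 and 5.49 CPM with TGF-β1 plus extract. The neutrophil list summed to 71.7 to 88.4 CPM in the other 7 libraries and to 9.82 and 6.86 CPM in these, with Csf3r, Mpo and Elane at 0 throughout. Mesothelial markers without Krt19 summed to 551, 588 and 2708 CPM and macrophage markers to 28.6, 29.2 and 109 CPM in untreated replicates 1, 2 and 3. With TGF-β1 plus extract the mesothelial sums were 664, 729 and 666 CPM, without a rise in replicate 3. The macrophage sums were 19.0, 19.4 and 37.9 CPM there. Stratified epithelial markers were highest in replicate 3 of both groups, at 245, 248 and 928 CPM untreated and 208, 227 and 649 CPM with TGF-β1 plus extract. Their part in these values was not tested.

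**Figure D4:**
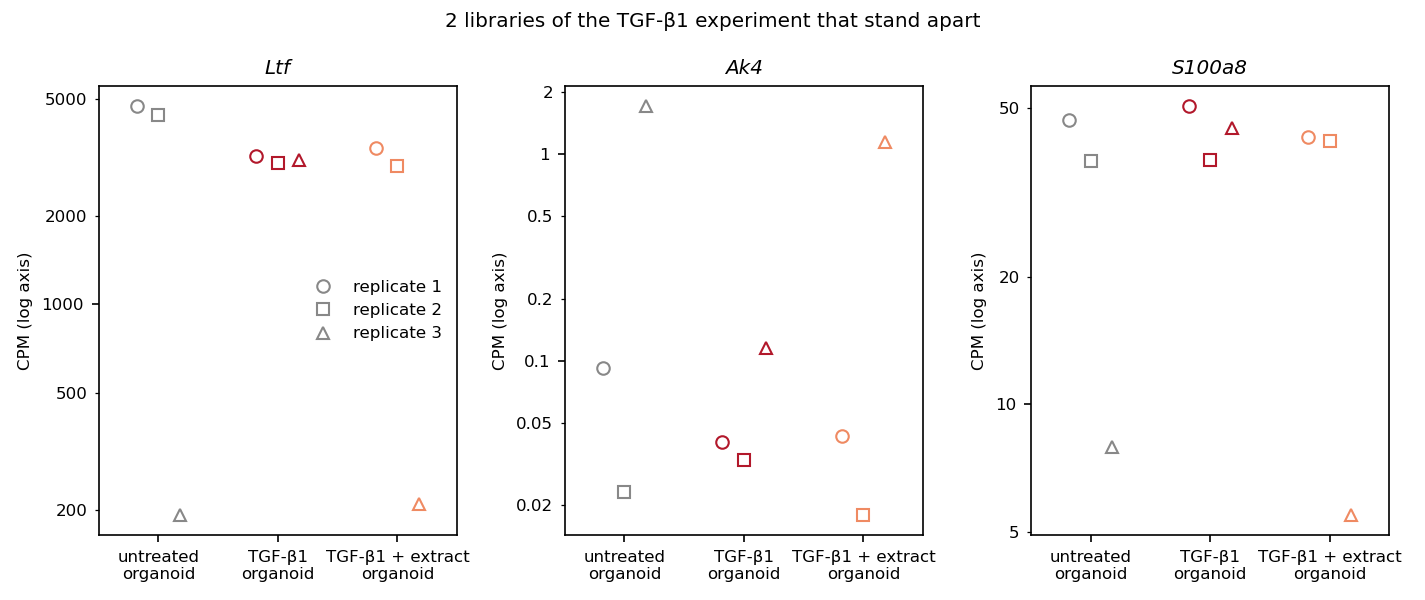
CPM (log axis) of Ltf, Ak4 and S100a8 in each of the 9 libraries of the TGF-β1 experiment, grouped on the x axis as untreated, TGF-β1, and TGF-β1 then extract; points are libraries. Untreated replicate 3 and TGF-β1 plus extract replicate 3 are low in Ltf (193 and 210 CPM) and S100a8 (7.94 and 5.49 CPM) and high in Ak4 (1.70 and 1.14 CPM).

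The extract after TGF-β1 was likewise followed by no call among the 4 genes, against TGF-β1 alone (0 genes called in the whole table, 0%; 272 with an unadjusted p under 0.05, and 0 by limma voom) or against untreated organoids (2 genes, 0.0142%, and 0 genes with the replicate number as a block). Ly6d had 235, 269 and 253 CPM, Tnk1 17.4, 18.4 and 23.5 CPM, and Rasgrf1 10, 8 and 14 reads. Ltf, at -1.28 ± 1.41 against TGF-β1 alone (SE; adjusted p = 0.768, limma) and -0.31 against untreated organoids (0.973), rested on the library that stood apart. Without the 2 such libraries Ltf was at -0.52 against untreated organoids (adjusted p = 0.00103), where 1947 genes (14.1% of those tested) were called.

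Relatives and pathway partners of the 7 genes, the 7 left out, moved in both directions in organoids of CCl4 mice against mineral oil organoids (limma, adjusted p under 0.05). Over all genes tested the median log2 fold change was 0.03, with 20.4% higher and 19.8% lower, and many of the counts lie near those shares. In the Ly6 and uPAR family, 22 genes were tested, 3 were higher and 8 lower (median -0.75), among them Ly6c1 from 57.2 to 2.37 CPM and Lypd6b from 0.259 to 2.97 CPM. Of 13 secreted antimicrobial and iron-binding proteins, 1 was higher and 4 lower (median -0.87): transferrin (Trf) went from 300.5 to 1040 CPM and the secreted inhibitor Wfdc2 from 430.3 to 99.8 CPM. Of 8 podoplanin partners 3 were lower and 0 higher (median -0.33), among them moesin (Msn, 41.5 to 17.4 CPM), which links membrane proteins to actin. None of the 5 other adenylate kinases was called.

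Of 30 hypoxia-inducible factor targets tested beside Ak4, 5 were higher and 6 lower (median -0.30), with the prolyl hydroxylase P4ha2 from 213.9 to 25.4 CPM and Ankrd37 from 73.7 to 115.9 CPM. Of 20 Ras exchange factors and GTPase activators, 3 were higher and 5 lower (median -0.28). Rasgrf2, the paralog of Rasgrf1, went from 1.51 to 0.0534 CPM, and Sos2, another exchange factor, from 38.3 to 88.7 CPM. Of 20 feedback and target genes of the ERK kinases downstream of Ras, 3 were higher and 6 lower (median -0.26). The growth factor epiregulin (Ereg) went from 0.0276 to 6.78 CPM and cyclin D1 (Ccnd1) from 731.3 to 125 CPM. Among 21 calcium transport genes 0 were higher and 5 lower (median -0.0017), among them the inositol trisphosphate receptor Itpr2 from 18.01 to 7.18 CPM. Among 22 non-receptor tyrosine kinases 6 were higher and 6 lower (median 0.09), with Lyn from 46.1 to 17.2 CPM. Without mineral oil replicate 1, when 60.7% of all genes were called, the counts higher and lower were 6 and 8 for the Ly6 family, 2 and 5 for antimicrobial proteins, 2 and 4 for podoplanin partners, 2 and 1 for adenylate kinases, 6 and 15 for hypoxia targets, 7 and 9 for Ras regulators, 7 and 8 for ERK genes, 5 and 7 for calcium transport and 10 and 7 for tyrosine kinases.

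In CCl4 liver against healthy liver, where 28.7% of all genes were higher and 25.5% lower, the same lists had more higher than lower members, except the adenylate kinases with 1 of each (Ak1 from 0.170 to 2.73 CPM, Ak3 from 450.8 to 257 CPM). The median over all genes was 0.0025. Of 16 antimicrobial and iron-binding proteins 12 were higher and 1 lower (median 1.77), with the protease inhibitor Slpi from 1.08 to 15.2 CPM and the immunoglobulin receptor Pigr from 1695 to 599.7 CPM. Of 18 ERK genes 12 were higher and 1 lower (median 0.64), with Ccnd1 from 14.7 to 106.5 CPM. Of 12 Ly6 and uPAR genes 5 were higher and 2 lower (median 1.01), with the urokinase receptor Plaur from 0.359 to 3.18 CPM. Of 10 podoplanin partners 6 were higher and 3 lower (median 0.72), with Cd44 from 11.6 to 32.7 CPM. The counts higher and lower were 8 and 2 of 22 Ras regulators, 9 and 5 of 21 calcium transport genes, 12 and 3 of 30 tyrosine kinases, and 11 and 8 of 30 hypoxia targets, where Bnip3 went from 227.9 to 59.1 CPM. Several of these counts, such as those of the hypoxia targets, lie near the shares over all genes. With library size alone as the scaling, where 84% of all called genes were higher, they became 15 and 0, 12 and 0, 17 and 1, and 17 and 5 in the same order. In the TGF-β1 experiment no member of any list was called, where at most 3 of 14125 genes were called in any of the 3 comparisons, so this says nothing particular of the lists. Without the 2 libraries that stood apart, 11.9% of genes were higher and 12.2% lower with TGF-β1 than in untreated organoids. The counts higher and lower were then 2 and 3 of 17 Ly6 and uPAR genes, 0 and 5 of 13 antimicrobial proteins, 2 and 1 of 8 podoplanin partners, 2 and 2 of 4 adenylate kinases, 2 and 7 of 29 hypoxia targets, 1 and 3 of 19 Ras regulators, 6 and 3 of 19 ERK genes, 0 and 2 of 21 calcium transport genes and 0 and 3 of 20 tyrosine kinases.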

How the data were processed

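Poly(A) RNA of 9 mouse groups with 3 libraries each was sequenced from a stranded kit. The authors deposited 3 tables of log2 CPM values, normalized separately, with mm10 as the build named in the submitters' processing notes and the aligner and counter unstated in the sources used here. The deposited log2 values were whole reads plus a scaled prior count of 2, and rebuilding them recovered whole reads within 0.05 for 100% of values (scaling factors 0.854 to 1.22). Genes with the CPM of 10 reads in at least 3 libraries were tested with limma 3.58.1 (R 4.3.3) on the log2 values, one mean per group over the 9 libraries of a table, trended variance, two-sided, Benjamini-Hochberg adjusted over all genes tested, threshold 0.05, after tests on simulated data. The members and all gene lists were chosen with earlier results of these data known. Genes most alike were those with the highest Pearson correlation over 18 organoid libraries. List examples were taken from the genes with the smallest p among those called in each direction. Same-numbered libraries of untreated and TGF-β1 plus extract organoids deviated together (correlations 0.531, 0.583 and 0.717), with replicate 3 standing apart in both groups. The labels state no link between them, so the main fit used no pairs, and the replicate number entered only as a block in an alternative. In the other group pairs these correlations ran from -0.149 to 0.367. Alternatives were library size only, other prior counts and filters, limma voom, 2 groups only, a replicate block and leaving libraries out.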

Additional observations from a re-analysis of the deposited data

Results flagged for a closer look

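In CCl4 liver against healthy liver and in organoids of CCl4 mice against mineral oil organoids, 4 genes had opposite directions with no overlap between the groups in either table. Ly6d had a log2 fold change of 6.48 in liver and -7.00 in organoids. Ltf had 3.38 in liver and -8.18 in organoids. Pdpn had 1.78 in liver and -9.18 in organoids, and Slc8a1 1.69 and -8.32. The difference between the 2 contrasts was not tested, and the organoid contrast chose the genes. By direction alone, overlapping groups included, the same combination held for 26.5% of the 13116 genes tested in both tables. In liver 30.7% of all genes were higher without overlap, and in organoids 21.9% were lower without overlap. The share that met both of these was not counted.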

How the results depend on the processing

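Of 962 values recomputed under alternatives, 860 were classed as unchanged. For tested fold changes this means the same side of the threshold, and the direction could turn where neither fit passed it. Untested fold changes had to keep their direction and stay within the spread between replicates, and counts of calls had to move little. The calls of Ly6d, Ltf, Pdpn and Slc8a1 in CCl4 liver were kept with library size alone as the scaling, where Ak4 lost its call (-0.14, adjusted p = 0.195, limma). Ltf and Pdpn entered that test only with the livers of CCl4 mice, where they are high. Without the 2 libraries that stood apart in the TGF-β1 table, which leaves 2 libraries in each of their groups, the number of the 4 tested genes called rose from 0 to 1 for TGF-β1 against untreated organoids (Ltf, turned to -0.55) and to 1 for TGF-β1 plus extract against untreated organoids (Ltf, -0.52). Genes called in all then numbered 3317 in place of 3, and 1947 in place of 2. For TGF-β1 the number was 0 without a filter, 1 with limma voom, 56 with only the 2 groups and 0 to 3 with one library left out. For TGF-β1 plus extract it was 0 with library size alone, without a filter or with only the 2 groups, 1 with limma voom, and 0 to 53 with one library left out (53 without TGF-β1 plus extract replicate 3). With the replicate number as a block, the genes called were 1 and 0 in these comparisons, 8241 in place of 8143 in CCl4 liver, and no call of any of the 7 genes changed. For the extract in CCl4 liver, 1452 to 1870 genes were called in place of 2871 when one library was left out, other than CCl4 liver replicate 2. The fold changes of genes near 0 reads depend on the prior count: Pdpn in organoids of CCl4 mice against mineral oil organoids was -11.18 with 0.5 reads and -7.86 with 5. Rasgrf1 and Tnk1 in liver and Ak4 in organoids of healthy mice could be fitted only without the filter on low values (Ak4 with TGF-β1 against untreated organoids -1.33, adjusted p = 0.769, limma), and Pdpn and Slc8a1 had no read in the TGF-β1 table.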
